A study of Homo sapiens with 8 samples.

Results

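Open chromatin was examined at 8 genes of the red cell membrane: SLC4A1 (band 3), EPB42 (protein 4.2), ANK1 (ankyrin-1), SPTB (β-spectrin), EPB41 (protein 4.1R), GYPC (glycophorin C), GYPB (glycophorin B) and RHAG (the Rh-associated glycoprotein). A peak belonged to a gene when its summit, the base of highest signal, lay inside the gene body or within 30 kb of one of the gene's annotated transcription start sites. By this rule 199 of the 126449 peaks in 4 lists were members, and they fell into 70 of the 43654 regions formed by merging peaks that overlapped by at least 1 bp. The assay was ATAC-seq, in which the transposase Tn5 cuts accessible DNA and leaves sequencing adapters, so that fragments accumulate over open sites. The cells were HUDEP-2, an immortalised human erythroid progenitor line that is grown with stem cell factor (SCF), erythropoietin, dexamethasone and doxycycline. All libraries used here came from cells carrying the scrambled control guide of a CRISPR interference experiment (sgControl), starved for 5 h in medium with albumin but without these factors. The SCF group then received 50 ng/ml SCF, which activates the Kit receptor, for 1 h, and the PBS group received phosphate-buffered saline (PBS), with 50000 cells and 2 biological replicates per group. The 4 samples with a guide to EGR1 were not analysed here.

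The red cell keeps its shape through a hexagonal lattice of spectrin under the lipid bilayer. Ankyrin-1, with protein 4.2, ties β-spectrin to band 3 and to the Rh complex, and protein 4.1R ties the spectrin and actin junctions to glycophorin C. Erythroid precursors switch these genes on during maturation, largely through the factors GATA1, TAL1 and KLF1, and several of the genes have more than 1 promoter, so that erythroid, kidney, brain or muscle forms of the protein start from different first exons. Inherited defects of band 3, ankyrin, spectrin, 4.1R and 4.2 cause spherocytosis or elliptocytosis.

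The files held peak lists, called separately in each library, with 30240 and 33616 peaks under PBS and 29269 and 33324 under SCF. Total reads are unknown. A pileup, the whole-number signal at each summit, was recovered from the deposited fold enrichment and p-value. For the member peaks it ranged from 7 to 181 with a median of 32. It is called fragments below, although whether the caller counted fragments or their cut ends is not given in the sources used here. Fold enrichment is the summit signal divided by the local background of the same library, so it was converted to a percentile rank within each list, where 100 is the highest peak. Ranks, fold enrichments and fragments are given below in a fixed order: PBS replicate 1, PBS replicate 2, SCF replicate 1, SCF replicate 2. As a check of the cell type, start sites of 8 erythroid genes were looked up, and 7, 8, 7 and 7 of them had a peak within 1 kb. Of 3 hepatocyte genes none had one, but 1 of 4 T cell genes, 1 or 2 of 4 B cell genes, 2 or 3 of 4 neutrophil and monocyte genes and 2 of 3 neuronal genes did. With 2 libraries against 2, an exact permutation test cannot give a p-value below 0.333, so by this test no difference between SCF and PBS could pass a threshold of 0.05.

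The sequences under the start-site summits of 6 of the genes differ in the words they hold, and they are given here with 4 further sites on which the results turn. At the start sites of GYPC, SPTB and RHAG the summits of the 4 libraries lay up to 501, 324 and 214 bp apart. The start-site windows of these 3 genes therefore do not cover the summit of every library. At the RHAG intron 7 site the SCF summits lay 161 bp apart, so its window does not cover both. The EPB41 intron 1 and start-site summits lay up to 158 and 122 bp apart, so these windows may also miss a library. Each sequence is the DNA within 100 bp of the summit with the highest fold enrichment, from the GRCh37 assembly (hg19), written 5′ to 3′ on the strand of the gene. Bases of an annotated untranslated region were left off, which shortened the SPTB and EPB41 windows to 170 and 149 bases. Capitals mark matches to the GATA words AGATAA or TGATAA and to the CACCC-box word CCNCNCCC, on either strand, where N is any base and overlapping matches run together.
EPB42 start site, chr15:43513261-43513461, minus strand: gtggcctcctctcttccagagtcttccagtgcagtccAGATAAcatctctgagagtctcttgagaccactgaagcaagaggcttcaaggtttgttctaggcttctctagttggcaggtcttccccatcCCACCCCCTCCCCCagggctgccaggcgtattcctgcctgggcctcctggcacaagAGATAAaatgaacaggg
SPTB start site, chr14:65346626-65346795, minus strand: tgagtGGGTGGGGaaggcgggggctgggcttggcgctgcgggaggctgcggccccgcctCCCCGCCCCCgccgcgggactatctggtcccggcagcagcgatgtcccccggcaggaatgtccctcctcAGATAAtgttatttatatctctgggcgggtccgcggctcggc
EPB41 start site, chr1:29240907-29241055, plus strand: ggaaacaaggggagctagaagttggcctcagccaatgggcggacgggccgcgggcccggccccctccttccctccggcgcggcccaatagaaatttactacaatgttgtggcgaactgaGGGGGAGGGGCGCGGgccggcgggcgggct
GYPC start site, chr2:127413478-127413678, plus strand: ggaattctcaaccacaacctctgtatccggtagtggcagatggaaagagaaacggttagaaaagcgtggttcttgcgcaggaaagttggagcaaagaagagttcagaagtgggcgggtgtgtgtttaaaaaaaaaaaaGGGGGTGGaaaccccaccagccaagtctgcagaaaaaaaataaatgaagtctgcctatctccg
GYPB start site, chr4:144940546-144940746, minus strand: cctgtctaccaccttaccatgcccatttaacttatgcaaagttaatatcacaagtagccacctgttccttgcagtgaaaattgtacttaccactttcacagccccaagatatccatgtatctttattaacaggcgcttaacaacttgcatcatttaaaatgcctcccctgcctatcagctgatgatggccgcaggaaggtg
RHAG start site, chr6:49604586-49604786, minus strand: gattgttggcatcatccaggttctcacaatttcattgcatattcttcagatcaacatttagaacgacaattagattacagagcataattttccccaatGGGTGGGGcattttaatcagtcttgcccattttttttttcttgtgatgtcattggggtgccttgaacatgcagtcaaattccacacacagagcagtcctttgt
RHAG upstream site, chr6:49614102-49614302, minus strand: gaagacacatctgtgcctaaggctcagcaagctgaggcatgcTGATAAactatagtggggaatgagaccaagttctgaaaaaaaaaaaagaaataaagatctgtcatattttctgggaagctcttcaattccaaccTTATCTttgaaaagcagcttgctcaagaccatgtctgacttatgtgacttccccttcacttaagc
GYPC intron 1 site, chr2:127431676-127431876, plus strand: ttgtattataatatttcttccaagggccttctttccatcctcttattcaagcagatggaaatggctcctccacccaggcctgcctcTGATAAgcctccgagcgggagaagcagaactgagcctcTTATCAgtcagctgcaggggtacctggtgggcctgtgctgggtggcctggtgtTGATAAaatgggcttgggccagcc
EPB41 intron 1 site, chr1:29253522-29253722, plus strand: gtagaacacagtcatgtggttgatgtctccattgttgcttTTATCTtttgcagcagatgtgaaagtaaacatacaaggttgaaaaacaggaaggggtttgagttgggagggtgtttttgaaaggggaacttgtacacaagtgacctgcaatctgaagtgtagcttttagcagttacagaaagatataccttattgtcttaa
RHAG intron 7 site, chr6:49575138-49575338, minus strand: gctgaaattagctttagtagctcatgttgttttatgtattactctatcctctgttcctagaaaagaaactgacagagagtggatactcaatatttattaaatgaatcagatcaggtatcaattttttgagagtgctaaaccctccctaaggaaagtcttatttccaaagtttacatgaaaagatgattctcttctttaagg

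The EPB42 and SPTB promoters held both kinds of word within these windows, with 2 GATA and 3 CACCC matches at EPB42 and 1 GATA and 3 CACCC matches at SPTB. The EPB41 window held 3 overlapping CACCC matches and no GATA word, the GYPC and RHAG promoters 1 CACCC match each, and the GYPB promoter neither word. The RHAG upstream site held 2 GATA words and the GYPC intron 1 site 3 of them. These are matches of letters only, and no factor binding was measured.

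At the level of calls, the membrane genes were accessible in every library. All 8 genes had a start site with a peak in all 4 libraries, whereas this held for 29 of 33 other red cell membrane genes and for 14 of 27 non-erythroid relatives of the members. A gene with several start sites can meet this rule through any of them, and the share over all genes is not given here. Counted by region, 11 of the 15 within 1 kb of a member start site were called in all 4 libraries, against 74.9% of all start-site regions. Some of these relatives ranked high, as SPTBN4 did at 98.0 to 98.6 and SLC4A7 at 86.9 to 93.6, whereas SPTBN5 and ANK2 had no start-site peak in any library. Of the 70 regions, 38 (54.3%) were called in all 4 libraries, against 51.3% of all regions. Another 5 were called in 3 libraries, 5 in 2 and 22 (31.4%) in 1, against 26.5% of all regions in 1. The last were weak, with a median rank of 5.37 against 14.4 for all regions called in 1 library. They were spread over the libraries as 5, 5, 6 and 6.

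**Figure D1:**
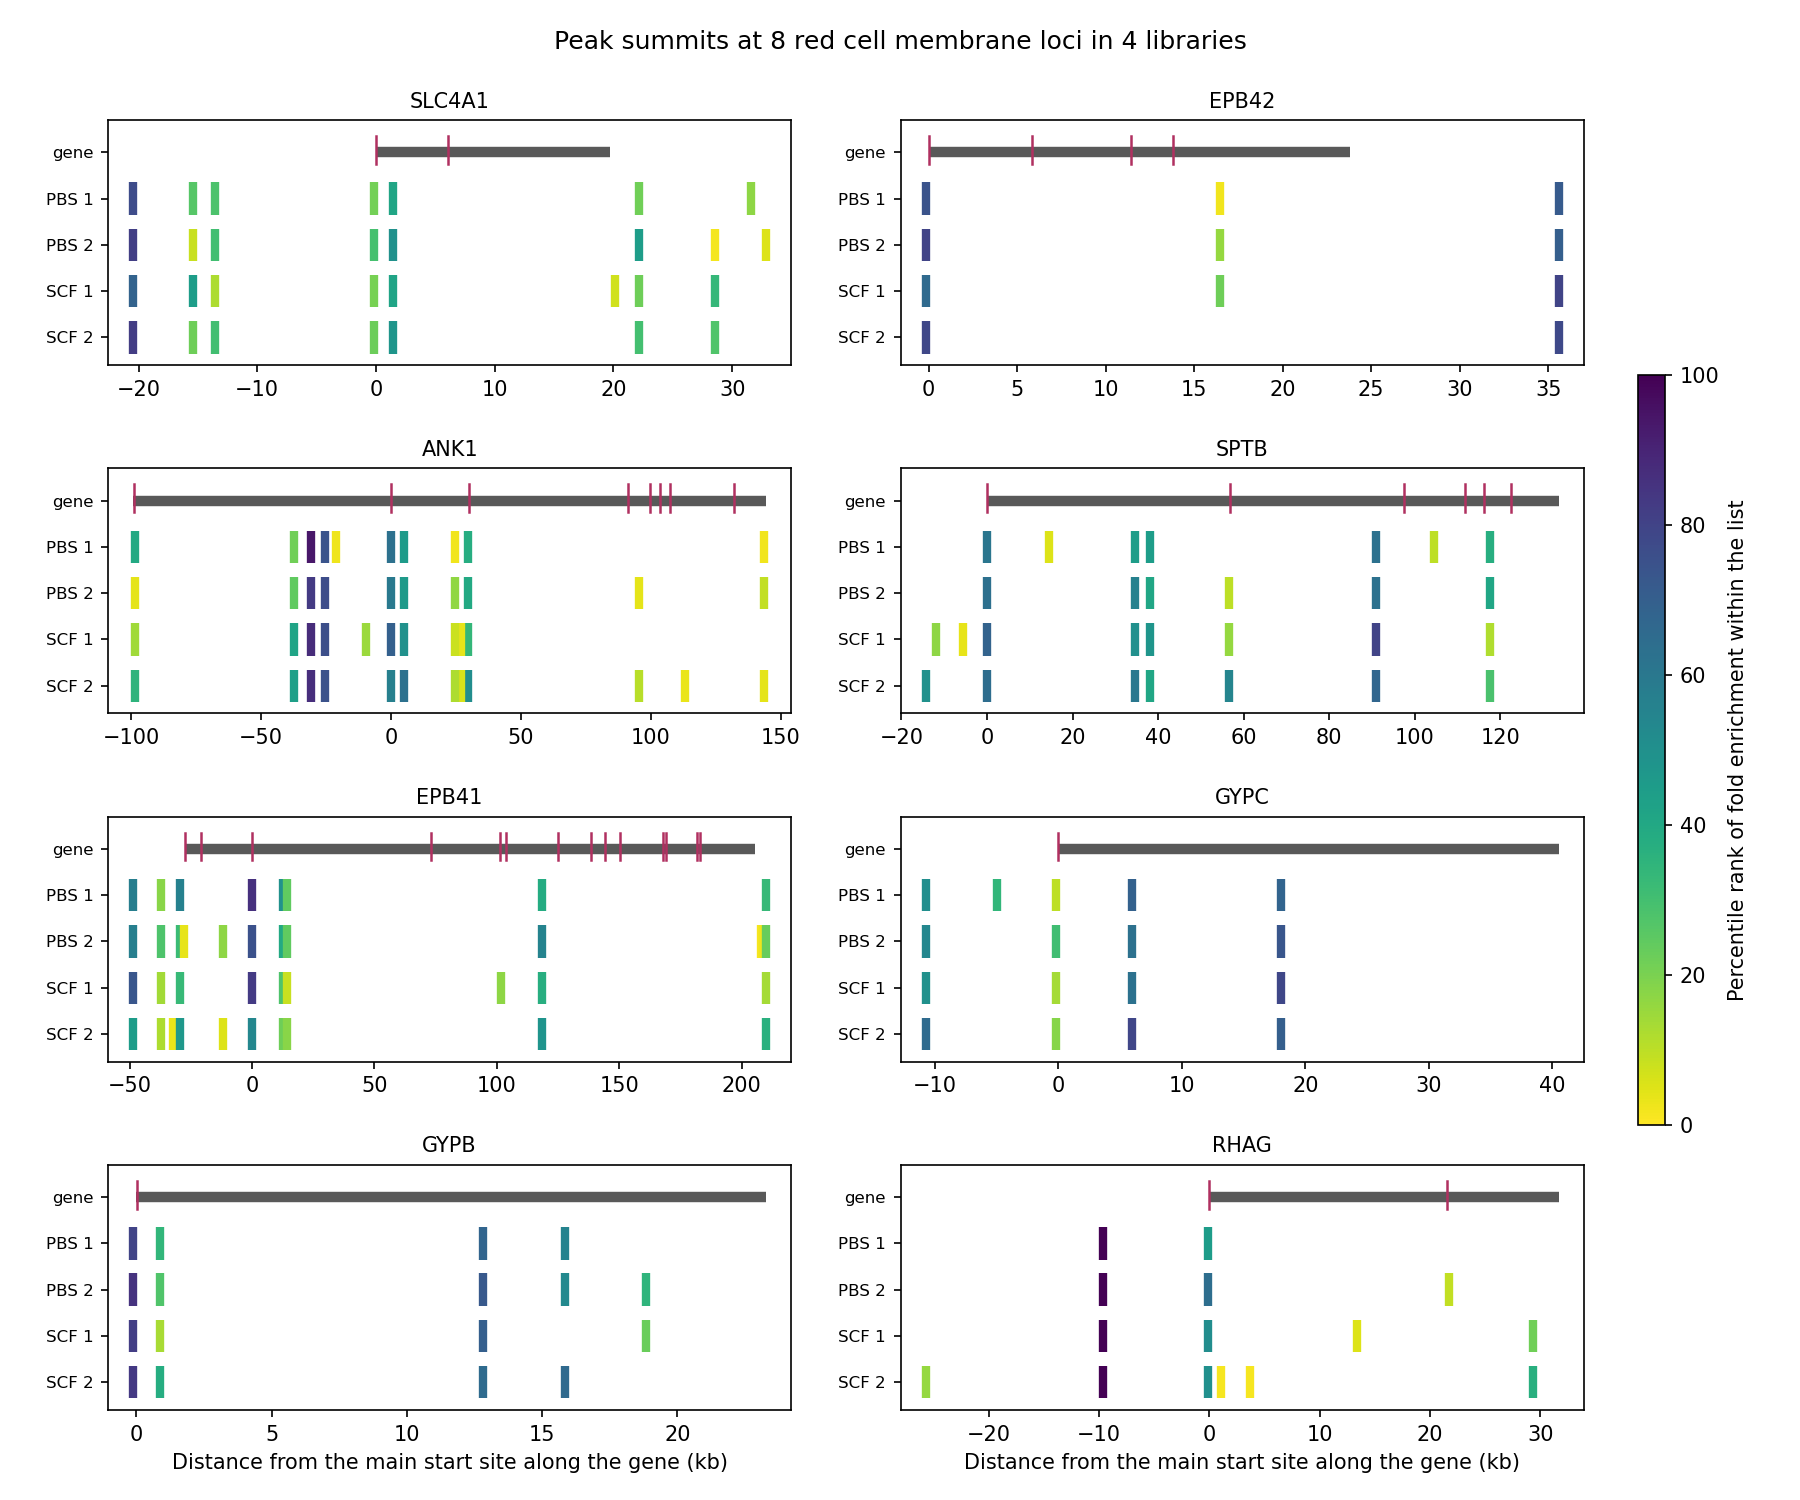
Peak summits at the 8 loci, 1 panel per gene, plotted by distance in kb from the main start site in the direction of transcription (negative is upstream). The grey bar is the gene body, red ticks are groups of annotated start sites, and each coloured bar marks the summit of a region called in that library, coloured by its percentile rank and not drawn to the width of the peak. The darkest bars, at RHAG −9.65 kb, have ranks of 99.6 to 99.9 in all 4 libraries.

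Peaks marked only a minority of the annotated start sites. The transcripts of the 8 genes start in 38 groups more than 1 kb apart. Of these, 10 had a peak within 1 kb in all 4 libraries, 4 in 1 to 3 libraries and 24 in none. Only 23 of the 38 groups hold a coding transcript. The same share over the start-site groups of all genes is not given here, so the minority is not a trait particular to these genes. Below, the main start site is that of the transcript marked as canonical in the annotation, which does not say in which tissue a transcript is used. Member start-site regions called in all 4 libraries had a median rank of 52.8 (n = 11), compared with 73.3 over all regions within 1 kb of a start site, and their median GC content around the summit was 56.7% against 67.2%. Away from start sites the medians were closer, 48.1 for the members (n = 22) and 51.2 for all regions. The 11 start-site regions include secondary start sites of ANK1 and more than 1 region at the GYPB start site. Taken by gene, with the highest start-site peak of each, the median rank was 63.3 for the members. It was 62.9 for the other red cell membrane genes and 60.7 for the relatives, over genes with a start site called in all 4 libraries.

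**Figure D2:**
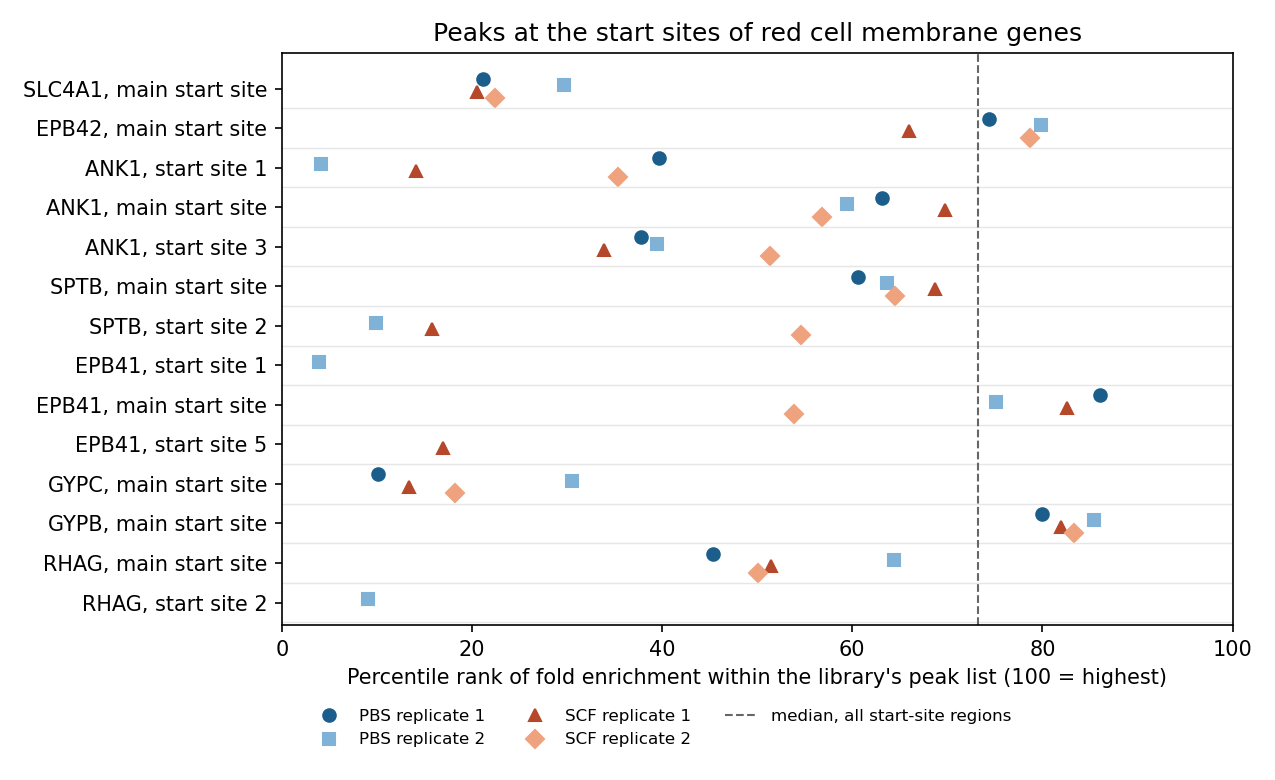
Percentile rank of fold enrichment (x axis, 100 is the highest peak of a list) for each start-site group of the 8 genes with a peak within 1 kb in at least 1 library (rows), with 1 symbol per library and the highest peak shown. The dashed line is the median of all start-site regions called in all 4 libraries, 73.3, and only the main sites of EPB42, EPB41 and GYPB have a library to its right.

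Band 3, encoded by SLC4A1, exchanges chloride for bicarbonate and is the main anchor of the membrane skeleton. Its main start site lay under a modest peak with ranks of 21.2, 29.7, 20.6 and 22.5 and 37, 53, 37 and 30 fragments at the summit. The 2 SCF values lay close to the lower PBS value, on either side of it, and the treatment means were 25.4 ± 6.01 for PBS and 21.5 ± 1.35 for SCF (SD, n = 2). A stronger peak sat in intron 1 at 1.40 kb (chr17:42343819-42344815), with ranks of 41.3, 50.0, 41.6 and 47.9, and its window held 2 GATA words, 1 of them in the composite arrangement of CTG, 9 bases and GATA that is known from sites bound jointly by TAL1 and GATA1. The group ranges overlapped there. The single internal start site, belonging to a non-coding transcript, had no peak. The highest region of the locus was intergenic, at −20.4 kb (chr17:42365441-42366321), where ranks were 77.2, 81.5, 68.6 and 82.1.

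Protein 4.2, encoded by EPB42, binds band 3 and ankyrin. Its main start site carried a strong promoter peak at chr15:43512498-43513857, with ranks of 74.4, 79.9, 66.0 and 78.7, fold enrichments of 10.5, 11.1, 9.35 and 10.8 and 104, 142, 81 and 96 fragments. SCF replicate 1 was the lowest and PBS replicate 2 the highest, so the ranges overlapped. The summits of the 4 libraries lay within 9 bp of each other. The 3 internal start sites of EPB42 had no peak. The other region called in all 4 libraries, chr15:43477015-43478311, is the promoter of the neighbouring gene CCNDBP1 and is not a site of EPB42. An intron 10 peak was called in PBS replicates 1 and 2 and SCF replicate 1 at ranks of 2.32, 15.9 and 22.0.

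The ANK1 locus, of ankyrin-1, held 14 regions, 8 of them called in all 4 libraries, the same numbers as EPB41, and 3 of its 8 start-site groups were marked in every library. At the main start site, chr8:41654627-41656222, ranks were 63.1, 59.4, 69.8 and 56.8, with 121, 142, 121 and 104 fragments. The PBS and SCF ranges overlapped, with means of 61.3 ± 2.62 and 63.3 ± 9.17 (SD, n = 2). The most upstream start site lay near a weak and variable peak at −98.4 kb (chr8:41753244-41753867) with ranks of 39.6, 4.13, 14.1 and 35.3. PBS replicate 1 and SCF replicate 2 were high and the other two libraries low, whatever the treatment. The third site, at chr8:41624490-41625912 in intron 1 of the main transcript, had ranks of 37.8, 39.5, 33.9 and 51.4. No peak was found at the group of 6 transcripts that start near the 3′ end of the gene, where skeletal muscle is known to make a short ankyrin.

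Between the most upstream and the main start site, ANK1 held 2 distal sites that ranked above its promoters. The highest of the locus was at −30.8 kb (chr8:41685465-41686682), with ranks of 94.1, 83.1, 87.9 and 86.8 and fold enrichments of 15.0, 11.7, 13.3 and 12.3. A second one at −25.5 kb had ranks of 73.8, 76.7, 75.9 and 74.8, the narrowest range over libraries of the ANK1 regions called in all 4. Neither window held a GATA or CACCC word. The site at 24.7 kb, in intron 1, was far weaker, with ranks of 2.19, 16.8, 8.11 and 12.1, but it held a GATA word in the composite arrangement.

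β-Spectrin, encoded by SPTB, forms the tetramers of the lattice with its α partner. The main start site lay under a peak at chr14:65346120-65347542 with ranks of 60.6, 63.7, 68.7 and 64.5, fold enrichments of 8.41, 8.38, 9.76 and 8.51 and 99, 142, 92 and 86 fragments. Both SCF ranks lay above both PBS ranks, by a mean of 4.43 points (exact permutation p = 0.333, the smallest possible). The promoter window held 1 match to the composite arrangement besides its GATA word. A second coding start site, in intron 1 of the main transcript at 56.5 kb, was not called in PBS replicate 1 and had ranks of 9.90, 15.7 and 54.6 in the others, so that the 2 SCF libraries were far apart. The other 4 start-site groups had no peak. The highest region of the locus was in intron 15 at chr14:65255322-65255905, with ranks of 62.7, 62.6, 80.0 and 67.6, and it held 2 GATA words and 1 AP-1 word (TGANTCA).

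Protein 4.1R, encoded by EPB41, is made in an erythroid and a longer non-erythroid form through alternative first exons, splicing and translation starts. The annotation gives it 14 start-site groups. The main one, shared by 13 transcripts, lay under a peak at chr1:29240560-29241388 with ranks of 86.1, 75.1, 82.6 and 53.8 and 49, 57, 41 and 25 fragments. SCF replicate 2 stood well below the other 3 libraries, and the SCF values spread over 68.2 ± 20.3 against 80.6 ± 7.79 in PBS (mean and SD, n = 2). By contrast, the most upstream group, of 11 transcripts, was near a peak only in PBS replicate 2, at −27.7 kb, at a rank of 3.87. Its 56 fragments were close to the 57 of the main site in that library, so the low rank does not mean few fragments. An internal coding start site was near a peak only in SCF replicate 1, at rank 16.9 and 8 fragments, and the other 11 groups had none. Within the 30 kb upstream window of that distal start site, a site at −48.5 kb inside the neighbouring opioid receptor gene OPRD1 had ranks of 57.8, 57.4, 73.3 and 44.9. A second one at −29.6 kb had 56.3, 31.7, 32.8 and 46.8.

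Glycophorin C, encoded by GYPC, binds protein 4.1R at the membrane. Its locus was the reverse of that of EPB42, with a weak promoter and strong introns. The start site, at chr2:127412830-127414155, had ranks of 10.1, 30.6, 13.3 and 18.2 and 29, 50, 28 and 29 fragments. PBS replicate 1 was the lowest and PBS replicate 2 the highest, so both SCF values lay inside the PBS range. In intron 1, the site at 5.93 kb had ranks of 69.3, 63.0, 62.8 and 79.2 and the site at 18.0 kb (chr2:127431361-127432259) had 68.0, 73.2, 78.5 and 70.0. The latter, printed above, held 3 GATA words, and 2.94% of all regions called in all 4 libraries with no start site within 1 kb held 3 or more. Of its words, 1 was in the composite arrangement.

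Glycophorin B, encoded by GYPB, is one of a cluster of near-identical glycophorin genes, so its values are uncertain. Only 28.7% to 50.3% of the 31-base stretches in its 5 regions occur once in the reference genome (median 42.0%), whereas the median was 82.4% to 100% at the other 7 genes. How the authors placed reads with several matches is not given in the sources used here. Taken as deposited, the start site had a strong peak at chr4:144940465-144940951 with ranks of 79.9, 85.4, 81.9 and 83.3 and 50, 67, 46 and 43 fragments. A second peak in intron 1, at 0.86 kb, had ranks of 34.3, 27.6, 13.0 and 38.3. Further into intron 1, at 12.8 kb, ranks were 67.9, 72.6, 70.3 and 65.3. In each of these, PBS and SCF ranges overlapped.

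RHAG encodes the partner that Rh proteins need to reach the membrane and is thought to conduct ammonium or gases. It held the most open site of all the loci, and this was not its promoter. The region at chr6:49613716-49614708, −9.65 kb from the start site, had ranks of 99.9, 99.7, 99.6 and 99.9, fold enrichments of 22.0, 20.3, 20.4 and 22.8 and 144, 181, 102 and 136 fragments. Of the 22398 regions called in all 4 libraries, 55 had a higher mean rank, and of the 9152 among them with no start site within 1 kb, 9 did. Its 31-base stretches all occur once in the genome, and 0 of them occur in mitochondrial DNA. The summits lay within 41 bp of each other, and both GATA words in the printed window were in the composite arrangement, which 11.0% of all regions called in all 4 libraries with no start site within 1 kb held at least once. The RHAG start site itself, chr6:49604203-49604850, had ranks of 45.3, 64.4, 51.5 and 50.0, with both SCF values inside the PBS range. A second, non-coding start site had a peak only in PBS replicate 2, at a rank of 9.0.

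SCF for 1 h left the number of open sites at these genes within the replicate spread when the full lists were used. PBS libraries had 46 and 51 member peaks (48.5 ± 3.54, SD, n = 2) and SCF libraries 50 and 52 (51 ± 1.41), a difference of 2.5 peaks (two-sided exact permutation p = 0.667). Leaving out PBS replicate 1 brought this difference to 0 and leaving out PBS replicate 2 raised it to 5. With an equal number of peaks per list the difference was 4 peaks, and in gene bodies alone it was 2. Under each of these 2 settings both SCF libraries lay above both PBS libraries (exact permutation p = 0.333, the smallest possible). The length covered was 34.0 ± 3.53 kb in PBS and 32.3 ± 0.683 kb in SCF libraries, a difference of −1.69 kb (exact permutation p = 1), which turned to 0.807 kb without PBS replicate 2.

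Call by call, 2 of the 70 regions were SCF-only, meaning that both SCF lists had a peak there and no PBS list did, or 2.86% against 1.65% of all regions. The first was in intron 7 of RHAG, chr6:49574902-49575277, printed above, with ranks of 21.9 and 37.0 in the SCF libraries but only 9 and 10 fragments. The second, in intron 1 of ANK1 at chr8:41628122-41628520, had ranks of 3.60 and 6.05 and 29 and 37 fragments. The RHAG call was lost when peaks needed a −log10 q of at least 5 or when summits had to lie within 150 bp. The count did not fall, as 3 member regions were SCF-only under each of these settings. The RHAG and ANK1 sites each held 1 AP-1 word, and 10.3% of all regions not called in all 4 libraries held at least 1. No region was PBS-only, against 2.37% of all regions.

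Among the 38 regions called in all 4 libraries, 1 was a rank gain, a gap of 10 points or more between the highest PBS and the lowest SCF rank, or 2.63% against 2.55% of all such regions. It was the ANK1 site at −37.1 kb (chr8:41692000-41692750), where ranks of 21.8, 24.3, 41.5 and 44.1 gave means of 23.0 ± 1.78 in PBS and 42.8 ± 1.87 in SCF (SD, n = 2, exact permutation p = 0.333). It rested on 13, 17, 18 and 17 fragments, and its summits lay up to 340 bp apart, so the call was lost when summits had to lie within 150 bp. The reverse call, a rank loss, was also made once, or 2.63% against 3.04%. This was the EPB41 intron 1 site printed above, chr1:29253243-29254007, with ranks of 49.6, 39.8, 28.1 and 22.0, means of 44.7 ± 6.96 in PBS and 25.1 ± 4.30 in SCF (SD, n = 2, exact permutation p = 0.333) and 19, 24, 13 and 13 fragments. It dropped out when the lists were shortened to equal length, with ranks of 48.0 and 30.9 against 28.1 and 11.2. Another member region was a rank loss under that setting. Just outside the limit lay an SPTB site in intron 32 with ranks of 37.4, 40.6, 11.9 and 28.6 and an EPB41 site at 14.1 kb with ranks of 24.6, 24.5, 8.31 and 17.6.

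**Figure D3:**
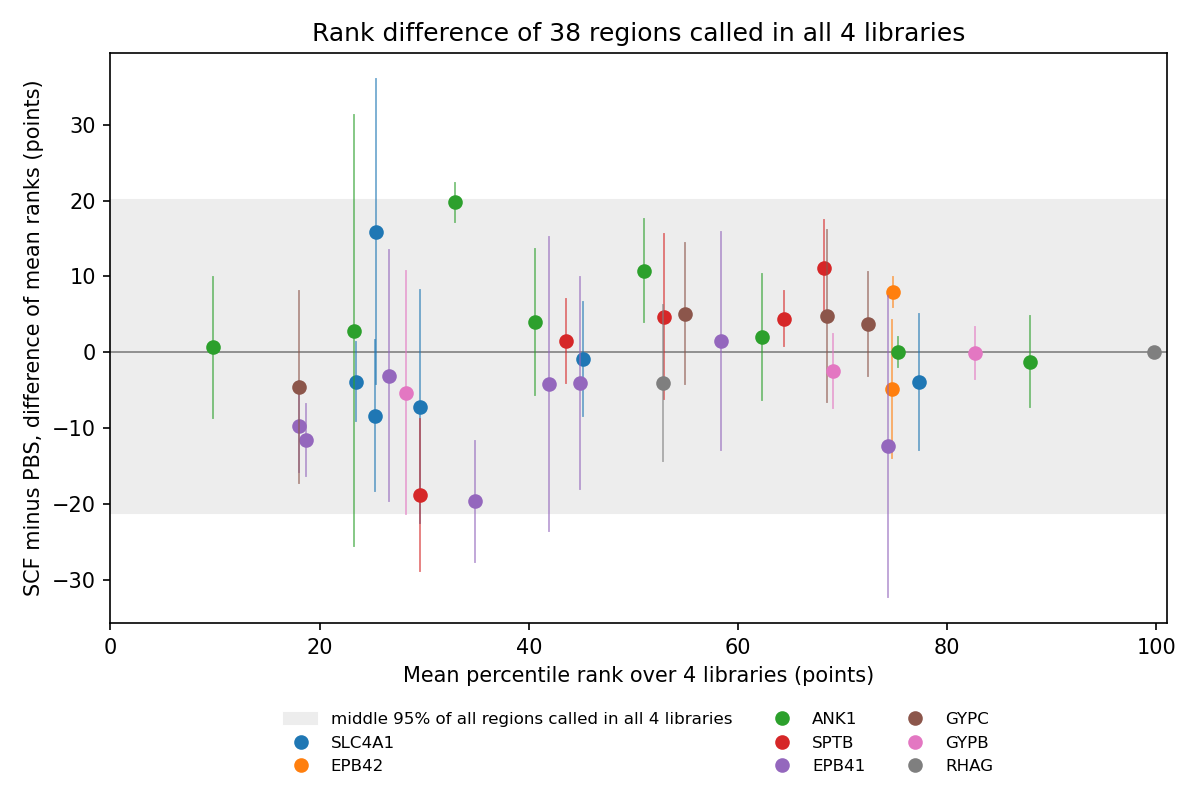
SCF minus PBS difference of mean percentile ranks, in points (y axis), against the mean rank over the 4 libraries (x axis) for the 38 member regions called in all 4, with points coloured by gene. Vertical lines run from the lowest to the highest of the 4 SCF minus PBS differences between single libraries, and the grey band holds 95% of all 22398 regions. All 38 points lie within the band, between −19.6 and 19.8.

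Seen over all 38 regions, 18 had a higher and 20 a lower mean rank in SCF, with a median difference of −0.477 points against −0.527 over all regions. The differences ran from −19.6 to 19.8, inside the range from −21.1 to 20.1 that held the middle 95% of all regions. Both SCF ranks exceeded both PBS ranks in 5 regions (13.2%), against 16.0% of all regions, and both lay under them in 4 (10.5%), against 19.3% of all regions. The 5 comprised 2 sites each of ANK1 and SPTB and the CCNDBP1 promoter, and the 4 comprised 1 SPTB site and 3 sites assigned to EPB41, of which 1 lay at the start site of another gene, ENSG00000233427. Between single libraries, the median difference in size was 5.47 points for the PBS replicates, 9.63 for the SCF replicates and 7.27 for the 4 pairings of an SCF with a PBS library. By gene, the mean rank was higher with SCF in 7 of 8 ANK1 regions (median difference 2.42) and 4 of 5 SPTB regions (4.43), and lower in 7 of 8 EPB41 regions (−6.97) and 5 of 6 SLC4A1 regions (−3.93). The 8 EPB41 regions include 2 at start sites of other genes and 1 inside OPRD1. Regions of a gene share libraries and surroundings and are not independent, so these counts are a description.

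Words known to be bound by erythroid and signal-responsive factors were counted within 100 bp of the summits, beside the same counts over all regions. Of the 11 start-site regions called in all 4 libraries, 3 (27.3%) held a GATA word, against 7.13% of all start-site regions, and 2 (18.2%) the composite arrangement, against 1.77%. The CACCC word was in 7 (63.6%), against 59.6%. With no start site within 1 kb, 11 of 22 member regions (50.0%) held a GATA word against 43.4% of all such regions, and 4 (18.2%) the composite arrangement against 11.0%. The CACCC word was rarer there, in 4 of 22 (18.2%) against 31.7%. The EGR1-type word GCGTGGG was in no member start-site region, against 6.85% of all, and in 1 of the 22 others (4.55%), an upstream site of EPB41, against 2.65%. The AP-1 word was likewise in no start-site region, against 3.19%, and in 3 of the 22 (13.6%), against 12.2%. The E-box CANNTG, a short word that matches often, was in 6 of the 11 (54.5%), against 46.7%, and in 18 of the 22 (81.8%), against 69.2%. These shares rest on few regions, and the lower GC content of the member promoters moves with them, a part that was not tested.

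**Figure D4:**
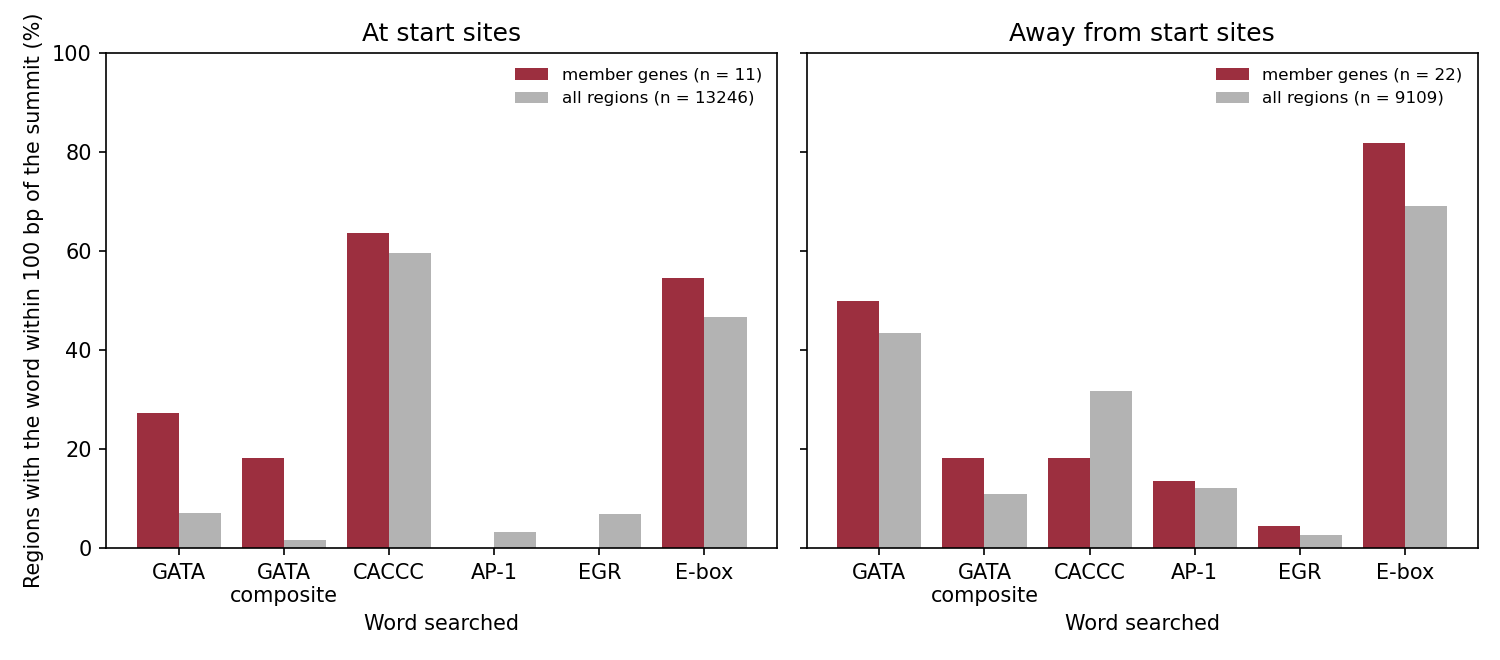
Share of regions with each word within 100 bp of the summit (y axis, %), for regions called in all 4 libraries at start sites (left) and with no start site within 1 kb (right). Red bars are the member genes and grey bars all regions, with the numbers of regions in the legends. At start sites the GATA word is in 27.3% of member regions and 7.13% of all.

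The same counts were taken over a list of 33 other genes of the red cell membrane, among them adducins, tropomyosins, the water channel AQP1, the glucose transporter SLC2A1 and blood group carriers. Of their 223 regions, 129 (57.8%) were called in all 4 libraries, 5 were SCF-only and 5 PBS-only, 4 were rank gains and 3 rank losses. For this list and the next, the shares to set beside these counts are 1.65% SCF-only and 2.37% PBS-only over all regions. Of all regions called in all 4 libraries, 2.55% were rank gains and 3.04% rank losses. The counts are small, and no difference from these shares was tested. The gains were in the loci of ATP2B4, a plasma membrane calcium pump, and of ERMAP, ICAM4 and SEMA7A, which carry blood group antigens. At ATP2B4, ranks of 44.3 and 52.4 in PBS stood against 68.2 and 77.1 in SCF. The ICAM4 gain, with ranks of 24.3, 22.0, 53.8 and 35.0, lay at a start site of another gene. The start sites of ICAM4 itself had at most 1.98, 15.0, 1.90 and 12.8. The ERMAP gain, chr1:43311842-43312858 with ranks of 80.3, 78.8, 91.0 and 90.5, was also at an annotated start site. Whether that start site belongs to ERMAP or to another gene is not given here. The gain was not at the highest start-site peak of ERMAP, whose ranks were 99.5 to 99.8. The losses were near ACTB, BCAM and KCNN4. The 27 relatives of the members, genes of the same families that serve mainly other tissues, had 129 regions with 64 (49.6%) called in all 4 libraries, 2 SCF-only, 3 PBS-only, 1 rank gain and no rank loss. The median rank difference, SCF minus PBS, was −0.585 points in the former list and 0.380 in the latter.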

How the data were processed

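ATAC-seq peak lists of 4 sgControl libraries were analysed. The authors sequenced paired ends and called peaks per library with an ENCODE pipeline; Bowtie2 and SAMtools are named in the submitters' processing notes, and caller settings are not given in the sources used here. The lists and the series text name hg19, whereas the methods name hg38, so coordinates were read as hg19 (24 chromosomes fit GRCh37, 0 exceeded). Peak names carry numbers 2 and 3 for PBS and 1 and 2 for SCF; label numbers were used. The deposited values are a fold enrichment, a ratio to local background, the −log10 of p- and q-values, and a whole-number score by the authors, which was not used. The lowest −log10 q in the lists gives a q-value of 0.0497.

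Peaks were merged at 1 bp of overlap and ranked by fold enrichment within each list. The gene models were those of GENCODE release 44 on GRCh37. Summit fragments were recovered as whole numbers from fold enrichment and Poisson p (largest relative error 5.49e-06). A site without a peak may still be open below the caller's threshold. The code for region calls was run on simulated data with 29993 regions, where 100% of 50 planted calls of each kind were recovered. The planted rank gaps were far wider than the limit, and planted regions were never dropped at random. This checks the code only and does not measure missed or false calls in the real lists. Each start site, the highest region of a locus and every called region were named by rule; other named regions, and the list members given as examples, were chosen after their values were seen. The members and lists were chosen with earlier results of these data known. The 4 sgEGR1 samples were not used here, and start-site sequences are printed for 6 of the 8 genes. Python 3.11.15, pandas 2.3.3, scipy 1.17.1 and pysam 0.24.0 were used. The alternatives were an equal number of peaks, a −log10 q of at least 5, windows of 10 kb or the gene body, ranking by −log10 p, gaps of 5 and 20 points, summits within 150 bp, a replicate block and leaving out each library.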

Additional observations from a re-analysis of the deposited data

How the results depend on the processing

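The counts of changed regions are small, and they moved with the settings. With a −log10 q of at least 5, SCF-only regions rose from 2 to 3, PBS-only regions from 0 to 1 and rank losses from 1 to 2. An equal number of peaks per list gave 3 SCF-only regions and left the other 3 counts as they were, with the loss at another site. A gap of 5 points gave 2 gains and 3 losses, and a gap of 20 points gave 0 and 0. With summits within 150 bp there were 3 SCF-only regions, 2 PBS-only regions and 0 gains. Leaving out each library in turn gave 2 to 8 SCF-only, 1 to 5 PBS-only, 1 to 5 gain and 1 to 6 loss regions, since fewer libraries have to meet the rule. The difference in peaks per library, SCF minus PBS, ran from 0 (without PBS replicate 1) to 5, and that in covered length from −4.19 to 0.807 kb, the latter reversed without PBS replicate 2. The median rank difference moved by less than the spread of library medians (SD 3.30 points) in all 11 alternatives, from −2.75 when SCF replicate 2 was left out to 1.41 when PBS replicate 2 was, so that its sign was not fixed. Same-numbered libraries shared only a number, with a correlation of 0.0239 between replicate differences over 22398 regions. The replicate block gave 2 gains and 2 losses and left the peak difference at 2.5 (exact sign-flip p = 0.5, the smallest possible). Windows of 10 kb or the gene body left the 4 region counts as they were. Few fragments, 7 to 181 per summit, limit the weakest calls, and GYPB values depend on how multiply matching reads were placed.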

Other observations

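Some regions of the membrane genes were called in only part of the libraries, and 3 of them are given here. A GYPB intron 1 site at 15.8 kb was called in both PBS libraries and SCF replicate 2 at ranks of 55.1, 52.9 and 65.9, and was not called in SCF replicate 1. Its sequence is 47.8% unique by 31-base stretches. Downstream of SLC4A1, the site at 28.6 kb had ranks of 1.83, 33.4 and 27.5 in PBS replicate 2 and the SCF libraries, and 12.4% of its 31-base stretches occur once in the genome. The highest-ranked region called in a single library lay −14.3 kb from the SPTB start site. It had a rank of 50.0 and 12 fragments in SCF replicate 2, and 9.80% of its stretches occur once.
At EPB41, 5 regions that the rule took in because of its distance limit lie at start sites of other genes, and 3 of them are at TMEM200B downstream of EPB41. The strongest of those 3 had ranks of 33.1, 23.2, 13.5 and 36.6.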
